A study of Gallus gallus with 2 samples.

Results

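Genes of antigen presentation were measured in cultures of DT40, a B cell line of the chicken, that differed in the H2A.Z protein they expressed. H2A.Z is a histone variant that takes the place of H2A in part of the nucleosomes, and R80C is a mutant form of it that the study calls cancer-associated. Both cultures were H2A.Z double-knockout cells, grown at 38 °C without tetracycline. Each carried a stably expressed FLAG-tagged protein, FLAG-H2A.Z.1 in one culture and FLAG-H2A.Z-R80C in the other. Total RNA (100 ng) of each was hybridised to a 1-colour chicken expression array. The design thus held 2 groups of 1 array each, on 1 slide and in 1 scan. The sources used here do not say whether each culture was 1 clone. There was no replicate, so no test was made, and the differences describe these arrays and not the genotypes. A signal "with H2A.Z.1" or "with R80C" is that of the array of those cells.

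The members were 9 chicken genes chosen by name: TAP1, TAP2, B2M, BF1 and BF2 of the class I pathway, CD74, BLB1 and BLB2 of the class II pathway, and CD1C. The choice was made with earlier results of these data known. A probe counted as a member's when its RefSeq accession belonged to that gene. By this rule 8 of the 9 genes had a probe, out of 5382 genes named on the array, and they had 22 probes in all. No probe was named for BLB2. A probe was called measured where the scanner software flagged it as well above background on both arrays. This held for 9 of the 22 probes, which read 6 of the 8 genes.

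MHC class I molecules show peptides from inside the cell to T cells, and consist of a heavy chain and beta-2 microglobulin. The peptides reach the heavy chain through the TAP transporter, which is built from both TAP proteins. Class II molecules show peptides taken up from outside, mainly on B cells, macrophages and dendritic cells, and are held ready for loading by the invariant chain CD74. CD1 molecules resemble class I chains, pair with beta-2 microglobulin and present lipids. In the chicken the class I heavy chain genes BF1 and BF2, the class II beta chain genes BLB1 and BLB2, both TAP genes and the CD1 genes lie on 1 small chromosome, with the TAP genes between the BF genes.

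CD1C, CD74 and the genes of the MHC molecules themselves showed different pictures. CD1C was higher in R80C cells by 1.74-fold over 2 probes, and no other measured member was higher in the main setting. CD74 was read brightly and was lower in R80C cells by 1.28-fold over 2 probes. The probes for chains of the MHC molecules were dim throughout, which does not by itself show that the transcripts were scarce. For B2M, BF1, BF2 and BLB1 together, 2 of 13 probes were measured on both arrays, and the brightest reached a signal of 20.4 with H2A.Z.1 and 18.6 with R80C.

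**Figure D1:**
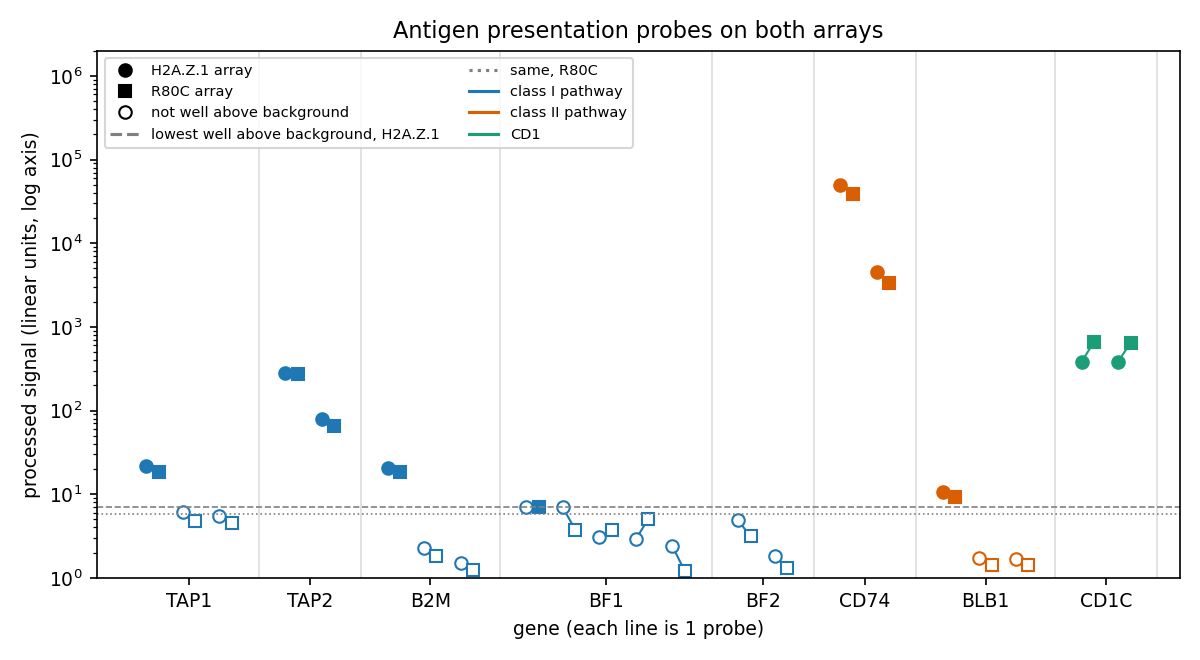
Processed signal (linear units on a log axis) of each of the 22 member probes with H2A.Z.1 (circles) and with R80C (squares), joined by a line per probe; open symbols were not well above background, and the dashed and dotted lines mark the lowest signal well above background on each array (6.95 and 5.81). Both CD1C probes are higher on the R80C array, both CD74 probes are lower, and every BF2 probe lies below both lines.

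The processed signal is the spot's brightness after background subtraction. The lowest signal that was well above background was 6.95 with H2A.Z.1 and 5.81 with R80C. The 75th percentile over all non-control spots was 1078 and 1055. Differences are given as R80C minus H2A.Z.1 on the log2 scale after each array was divided by that percentile. Among 39 probes printed several times the difference varied between spots with a standard deviation (SD) of 0.053, and among 2776 genes with several measured probes it varied between probes of a gene with an SD of 0.097. The error that Feature Extraction, the scanner software, assigned to each spot was larger, near 0.20 for a bright probe. It is a value that the software assigns and not an observed spread. Over all measured probes with a mean signal of 2500 or more, the SD of the difference was only 0.099. The SDs between spots and between probes describe technical spread, and none of these values is the spread between cultures. Over the 4326 named genes measured on both arrays, the median difference was 0.013. The 2 probes of H2AFZ, the gene of H2A.Z.1, differed by -0.028 and 0.11, and since their place relative to the knockout and the transgene is unknown they check neither.

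CD1C, one of a pair of chicken CD1 genes, gave 383 with H2A.Z.1 and 660 with R80C at its first probe. The second probe gave 382 and 647. Both probes thus read more signal in R80C cells, by nearly the same amount. The differences were 0.82 and 0.79, each with an error of 0.20 from the scanner software, and their mean was 0.80. Probes of 1 gene share the RNA of 1 culture, so they repeat the reading and not the experiment. Of all named genes measured, 0.67% reached a 1.5-fold higher value in R80C cells, and CD1C was the only member among them. Including CD1C, 15 of 4326 genes were at least as high as it was. Among the 9980 measured probes with a mean signal from 250 to below 2500, where both CD1C probes lay, 20 and 22 probes reached the difference of the first and of the second probe.

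CD1B, the other chicken CD1 gene and the direct neighbour of CD1C, was read by 1 measured probe. It gave 465 with H2A.Z.1 and 487 with R80C, a difference of 0.10, about as large as the SD between probes of a gene. The probe's sequence was not analysed here, so how far each of these probes also binds the related transcript is unknown.

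CD74, the invariant chain that blocks the class II groove and guides class II molecules to the endosome, was read by 2 probes of very different brightness. The bright one gave 50067 with H2A.Z.1 and 39248 with R80C. The other gave 4559 and 3382. Both read less signal in R80C cells. The differences were -0.32 and -0.40, each with an error of 0.20 from the scanner software, and their mean was -0.36. Over all named genes, 152 of 4326 were at least as low. Bright probes differed little between the arrays: among the 7240 measured probes with a mean signal of 2500 or more the SD of the difference was 0.099 and the 5th percentile was -0.14. In that group 50 probes were at least as low as the bright CD74 probe and 24 at least as low as the other.

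**Figure D2:**
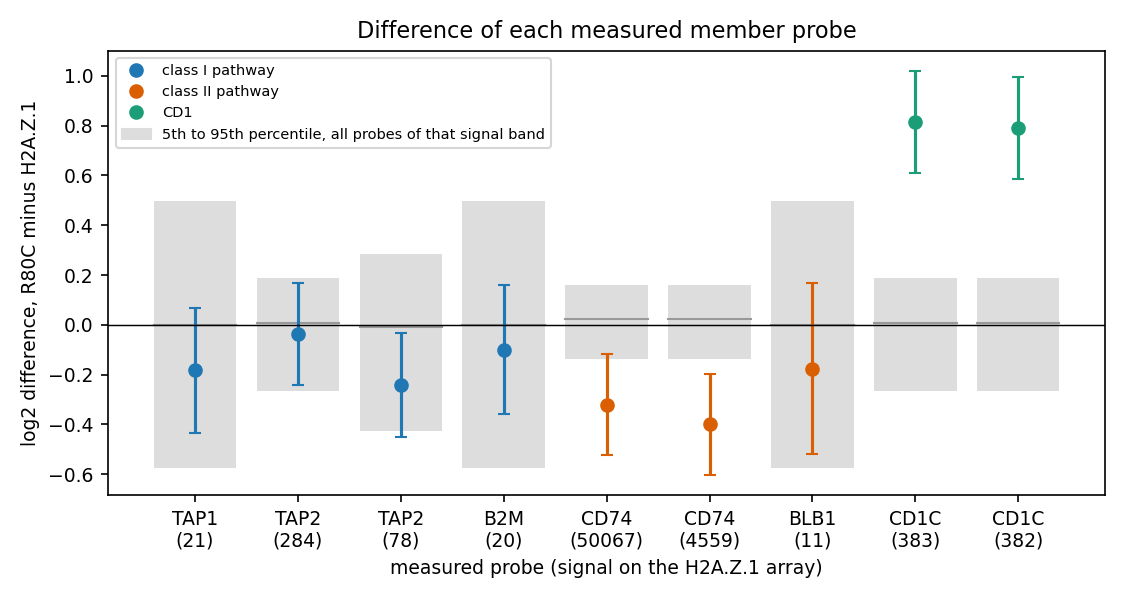
Log2 difference (R80C minus H2A.Z.1) of the 9 measured member probes, with the signal on the H2A.Z.1 array in brackets; bars are the error that the scanner software gave the spots, and grey boxes span the 5th to the 95th percentile of all measured probes of the same signal band. The CD1C points at 0.82 and 0.79 and the CD74 points at -0.32 and -0.40 lie outside their boxes, and the other 5 points lie inside.

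TAP2, a subunit of the peptide transporter, gave 284 with H2A.Z.1 and 270 with R80C at its brighter probe. The other probe gave 78.3 and 64.8. Both were lower in R80C cells, by unequal amounts. The differences were -0.038 and -0.24, with errors of 0.20 and 0.21, and the mean was -0.14. TAP1, the partner subunit, had 1 measured probe of 3, which gave 21.5 with H2A.Z.1 and 18.5 with R80C. That is a difference of -0.18 with an error of 0.25. Its other probes gave 6.10 and 5.50 in H2A.Z.1 cells and 4.74 and 4.58 in R80C cells, not well above background on either array.

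B2M, beta-2 microglobulin, also had 1 measured probe of 3. It gave 20.4 with H2A.Z.1 and 18.6 with R80C, a difference of -0.10 with an error of 0.26. Its other probes gave at most 2.29 and 1.85. BLB1, a class II beta chain gene, gave 10.7 with H2A.Z.1 and 9.23 with R80C at its 1 measured probe of 3, a difference of -0.18 with an error of 0.34. Its other probes gave at most 1.72 and 1.44. For TAP1, B2M, BLB1 and the brighter TAP2 probe the difference was smaller than the scanner software's error. Dim probes varied widely between the arrays: the 3901 measured probes with a mean signal under 25 had an SD of 0.34, and 32.8% of them were at least 1.1-fold lower in R80C cells.

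BF2, known as the main class I heavy chain of the chicken, could not be measured. Its 2 probes gave 4.85 and 1.83 in H2A.Z.1 cells and 3.12 and 1.33 in R80C cells, and neither was well above background on either array. BF1, the second class I heavy chain, had 5 probes, which gave from 2.38 to 7.11 with H2A.Z.1 and up to 7.02 with R80C. Of these probes 1 was well above background in R80C cells alone, where it read 7.02 against 7.11 in H2A.Z.1 cells. After scaling the values stood 0.012 apart on the log2 scale, with an error of 0.49 from the scanner software. No difference was read from this probe. Of the 12 member probes below the flag on both arrays, 10 had a lower scaled value in R80C cells. The same was true of 75.6% of the 12139 probes of the whole array that were below it on both arrays, with a median of -0.23, so the direction of the dim member probes was that of dim probes in general. BF1 and BF2, like BLB1 and BLB2, are closely related and vary between haplotypes, and the sources used here do not say which alleles the probes match. Their low signals therefore do not show that DT40 cells lack these transcripts.

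Lower in R80C cells by any amount were 5 of the 6 measured members, as were 44.4% of all named genes. By class, the 3 measured genes of the class I pathway lay between -0.18 and -0.10, with a median of -0.14. The 2 measured genes of the class II pathway stood at -0.36 and -0.18, with a median of -0.27. CD1C stood at 0.80, which was 0.94 above the class I median and 1.07 above the class II median. The median over all 6 was -0.16, beside 0.013 over all genes. At least 1.1-fold lower in R80C cells were 4 of the 6, namely CD74, TAP1, BLB1 and TAP2, where the share over all named genes was 13.5%. TAP2 lay just past that limit, and TAP1 and BLB1 rested on 1 dim probe each. After normexp background correction with quantile normalization CD74 alone was 1.1-fold lower, the median over members was 0.016, B2M stood at 0.048 and BLB1 at 0.042. Under that setting CD1C stood at 0.74 and CD74 at -0.39.

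**Figure D3:**
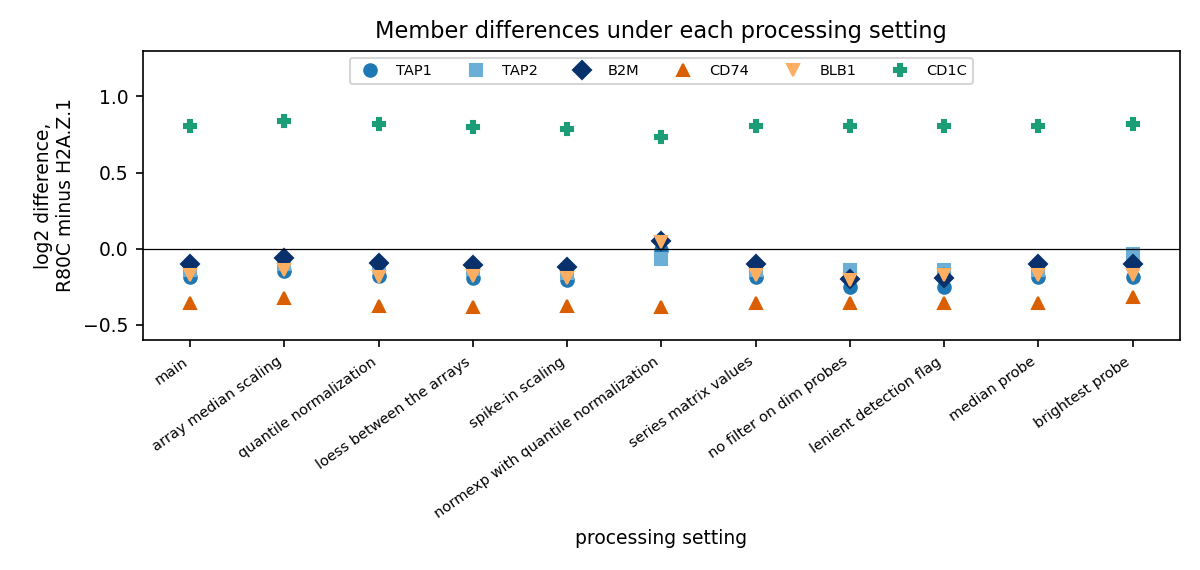
Log2 difference (R80C minus H2A.Z.1) of the 6 measured member genes under the main setting and 10 alternatives, 1 symbol shape per gene. CD1C stays between 0.74 and 0.84 and CD74 between -0.39 and -0.32, and B2M and BLB1 pass above 0 under normexp with quantile normalization.

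Genes that work with the members, or that neighbour them in the chicken B locus, were taken from 7 written lists, leaving out the members. Of these, 49 genes were measured, with a median difference of 0.019. At least 1.1-fold higher in R80C cells were 6 genes and at least 1.1-fold lower 11, where the shares over all named genes were 12.3% and 13.5%. As shares of the 49 these were 12.2% and 22.4%. The 49 included 10 neighbours chosen by place, which gave 1 of the higher and 3 of the lower genes. Of the 49, only IRF1 was 1.5-fold different in either direction, which held for 1.94% of all named genes.

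Peptide loading and class I accessory genes lay near 0. All 9 measured genes were within 1.1-fold, with a median of 0.059. Of all named genes 12.3% were at least 1.1-fold higher and 13.5% at least 1.1-fold lower. Most of the 9 were bright, and of measured probes at 2500 or more only 5.14% were at least 1.1-fold lower. TAPBP, whose product tapasin bridges TAP and the class I chain, stood at 0.13, but its 2 probes differed in sign, at -0.13 and 0.40. PDIA3, a disulphide isomerase of the loading complex, stood at -0.13 over 2 probes, and the isomerase gene PDIA4 at -0.067. The proteasome subunit gene PSMB7 stood at 0.068.

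Genes of class II loading and lysosomal processing spread more widely in both directions, but many were dimmer. MARCH8, DMB2, CTSD and LAMP2 read from 77.1 to 399 with H2A.Z.1, and the class I accessory genes other than TAPBP 2267 or more. Over measured probes the SD of the difference was 0.26 at mean signals from 25 to below 250. It was 0.16 from 250 to below 2500, and 0.099 at 2500 or more. Some genes far from 0 were not in the dimmer bands: LAMP2, DMA and CTSS read 399, 1166 and 5480 with H2A.Z.1. The part of brightness in the wider spread was not tested. Of the 11 measured, 3 lay at least 1.1-fold up in R80C cells and 4 at least 1.1-fold down, with a median of -0.023. The shares over all named genes were 12.3% and 13.5%. CTSS, cathepsin S, the protease that trims the invariant chain, gave 5480 with H2A.Z.1 and 4319 with R80C, a difference of -0.29 over 2 probes that both pointed down. DMA, a chain of the DM molecule that helps load class II, was picked after its value was seen and gave 1166 and 956, a difference of -0.26 at 1 probe. The other chain, DMB2, likewise picked, stood at -0.035. MARCH8, a ubiquitin ligase that removes membrane proteins including class II from the surface, stood at -0.27. LAMP2, a lysosomal membrane protein gene, was higher at 0.32, with probes at 0.16 and 0.47, and CTSD, the protease cathepsin D, at 0.28.

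Of the 18 listed transcription factors and kinases that drive MHC genes, 11 had a named probe and were measured, with a median of 0.011. CIITA, NLRC5, RFX5 and RFXAP were among those without a named probe, so the median does not cover them. IRF1, a factor of the interferon response that activates class I genes, stood at 0.67, at a dim 18.2 with H2A.Z.1 and 28.2 with R80C at its 1 probe. IRF4, a factor of B cells and plasma cells, stood at -0.25, with 9881 and 8376 over 2 probes. The kinase gene JAK2 stood at -0.27 and RFXANK, a subunit of the RFX complex that binds class II promoters, at 0.10. Among genes of lipid presentation, 4 were measured with a median of -0.075. HEXA, a lysosomal hexosaminidase gene, gave 1951 and 1462, a difference of -0.32 over 3 probes between -0.40 and -0.22. NPC2, which carries cholesterol out of the lysosome, stood at -0.15, and the CD1B value given above completes the named genes of this list. The interferon receptor genes IFNGR2, IFNAR1 and IFNGR1 stood at 0.17, 0.10 and -0.070, with a median of 0.10. CD40, a receptor for T cell help and the 1 measured costimulator gene, stood at 0.018, while CD86 and ICOSLG were not well above background on either array.

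**Figure D4:**
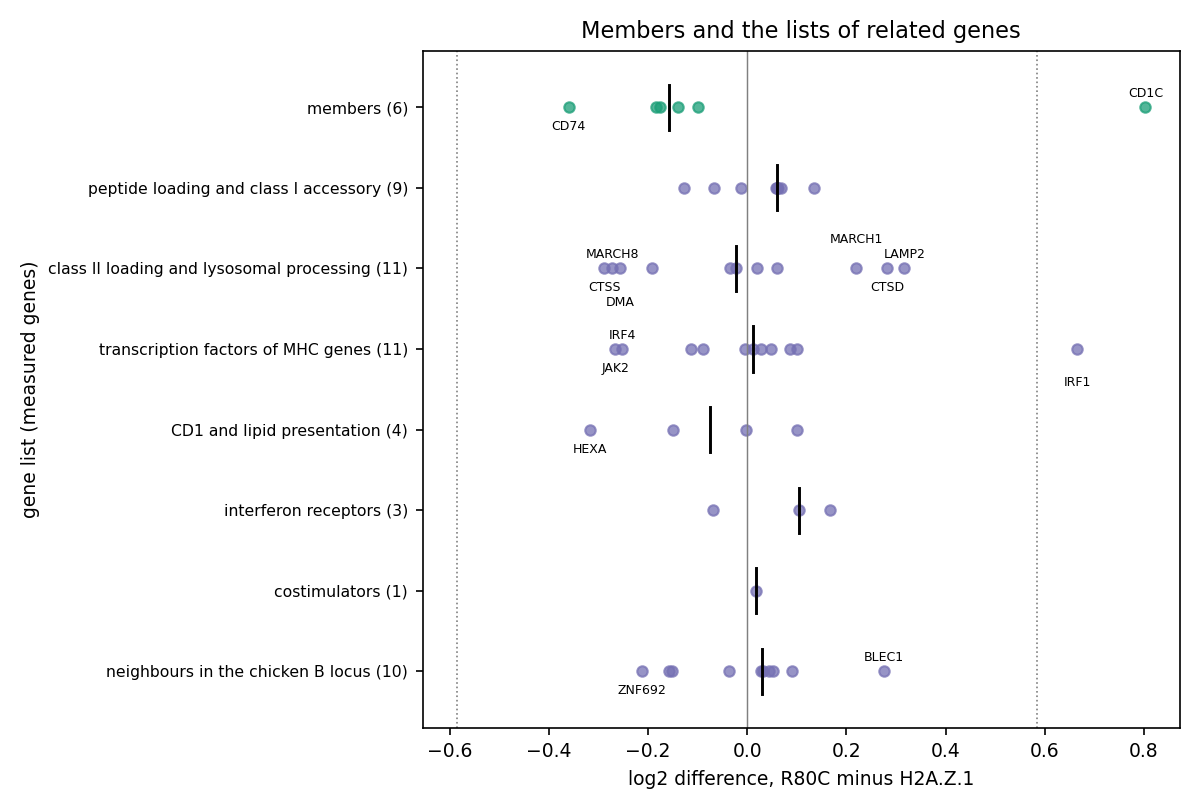
Log2 difference (R80C minus H2A.Z.1) of the 6 measured members and of the measured genes of the 7 related lists; each point is a gene, black bars are list medians, dotted lines mark 1.5-fold, and genes at least 0.2 from 0 are labelled. CD1C at 0.80 and IRF1 at 0.67 are the points beyond the dotted lines.

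The B locus gave a further view, since its members have neighbours that were measured on the same arrays. The neighbour list left out TAPBP, DMA, DMB2 and CD1B, which also lie among or beside the members and are given above. It named TRIM27 and TRIM39, but exact symbol matching did not reach TRIM27.2, at -0.42, and TRIM39.2, at -0.18. Both are among the chromosome 16 genes counted below. Of the neighbour list 10 genes were measured, with a median of 0.030. None was 1.5-fold different, a size reached by 1.94% of all named genes. At least 1.1-fold lower in R80C cells were 3 of the 10, and 1 was at least 1.1-fold higher. The shares over all named genes were 13.5% and 12.3%. BLEC1, a lectin gene, stood at 0.28 with a dim signal of 41.6 with H2A.Z.1 and 49.3 with R80C, and BG1, a butyrophilin-like gene, at 0.091. ZNF692 stood at -0.21, and the complement gene C4, next to BF2, at -0.16 over 6 probes. Over the whole of chromosome 16 in assembly GRCg7b, 20 genes that are no members were measured, 10 above 0 and 10 below, with a median of -0.0036 and a highest value of 0.28. CD1C, at 0.80, stood above each of these 20 genes, its neighbour CD1B included.

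**Figure D5:**
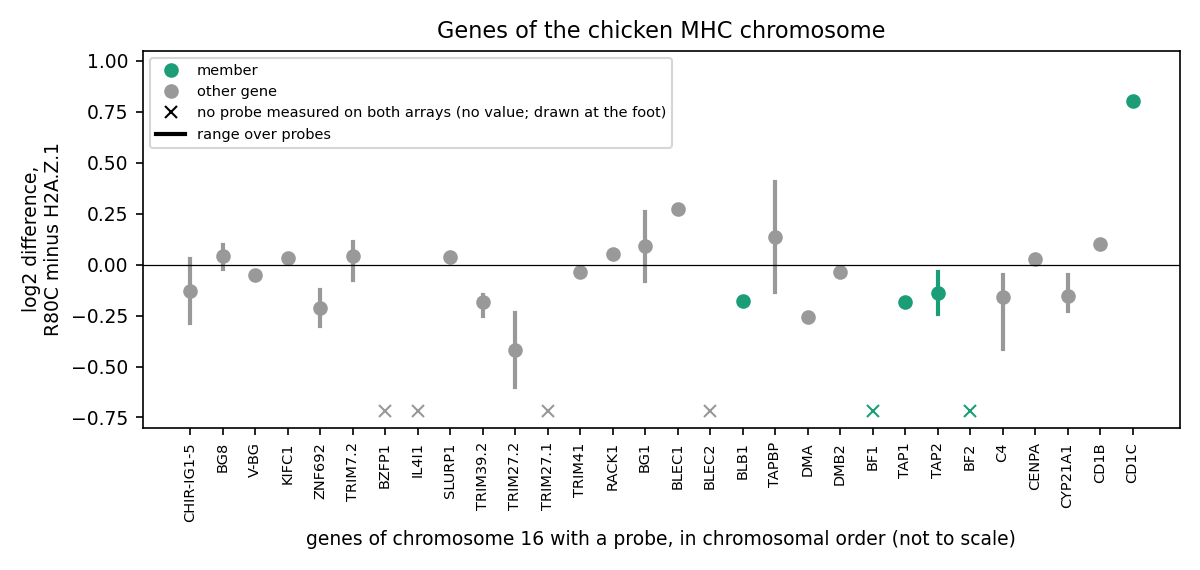
Log2 difference (R80C minus H2A.Z.1) of the 30 chromosome 16 genes with a probe, in their order in assembly GRCg7b and not to scale; bars span the probes of a gene, and crosses mark genes without a probe measured on both arrays. CD1C stands at 0.80 at the right end, beside CD1B at 0.10, and the measured members TAP1, TAP2 and BLB1 lie below 0.

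The identity of the cells was read from marker genes. Of the B cell and DT40 markers all 14 with a probe were measured, among them CD79B, a chain of the B cell receptor complex, with 59481 with H2A.Z.1 and 57797 with R80C. Their summed signal was 349514 and 330020, of which 1 gene gave 235290 and 221096, and their median difference was -0.025. EBF1 stood at 0.29 and IKZF1 at 0.14. JCHAIN gave 6780 with H2A.Z.1 and 4746 with R80C at 1 probe and stood at -0.48, lower than CD74 at -0.36. Over measured probes at 2500 or more the 5th percentile was -0.14. Of the macrophage and dendritic markers 4 of 8 with a probe were measured, each by 1 dim probe reading from 15.2 to 79.6 with H2A.Z.1. All 4 were lower in R80C cells, as were 44.4% of all named genes. They ran from -0.54 for TIMD4 and CSF3R to -0.079 for TLR4. The 5th percentile was -0.58 over measured probes under 25, where CSF3R lay, and -0.43 from 25 to below 250, where the other 3 lay. Their summed signal was 208 and 178, and LYZ stood at -0.10. CD14, MARCO and XCR1 were not well above background on either array. Of the T cell markers 6 of 7 with a probe were measured, with a summed signal of 40577 and 36724. Nearly all of that sum came from CD3D, which gave 39701 and 36047. CD3E stood at -1.54, CD3D at -0.071, CD8A at 0.084 and CD5 at 0.50, and CD4 was not well above background. The 2 probes of CD5 stood apart, at 0.20 and 0.80, and those of CD3E at -1.88 and -1.20. The part of these markers in the CD74 and CD1C differences was not tested. In bulk RNA, fewer cells with a transcript and less of it per cell cannot be told apart.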

How the data were processed

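Total RNA of 2 DT40 cultures was Cy3-labelled and run on 1-colour Agilent arrays, per the labels' protocols. The deposited scanner files hold spot intensity from Agilent Feature Extraction 11.5.1.1 (protocol GE1_1105_Oct12, grid build galGal3), background-subtracted and detrended within an array, per the file headers, with flags of other kinds (0 or 1 per spot). The deposited series matrix also holds intensity, of unstated basis: set against the scanner files it is the processed signal times 1.50 (H2A.Z.1) and 1.51 (R80C), linear and not centred, with column medians of 129.9 and 125.1. How these factors were chosen stays unknown.

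Signals were divided by the 75th percentile of their array and put on the log2 scale. Spots of a probe were averaged, and the probes of a gene that were well above background on both arrays were then averaged. No spot was saturated, and outlier flags marked 1 and 0 spots. Of 43603 probes 30199 were measured. Of 13060 RefSeq probes 11935 matched the GRCg7b table by accession without version. Lists were matched by exact symbol. A signal given for a gene is the mean over its measured probes. With 1 array per group there is no test, and the number of arrays limits precision. The sizes of 1.1-fold and 1.5-fold are descriptive.

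The members and lists were chosen with earlier results of these data known. Named genes were all members, in each list the 2 measured genes farthest from 0 in each direction, and any 1.5-fold different. CD79B, LYZ, TLR4, DMA and DMB2 were named besides after their values were seen. Genes given without a difference, such as CD86, CD4 and CIITA, were also named outside this rule. Some marker genes counted in the lists are not reported here by name. No gene could be named for a like profile over 2 arrays. The calculation was tested on simulated data, with changes put only into brighter genes and the flags of the H2A.Z.1 array used for both arrays. That test did not cover the dim members. Python 3.11.15, pandas 2.3.3, R 4.3.3 and limma 3.58.1 were used. Alternatives were other scalings (median, quantile, loess, spike-in), normexp (offset 50) on the median signal, since the files hold no mean signal, the series matrix, the dim-probe filter and the choice of probe.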

Additional observations from a re-analysis of the deposited data

How the results depend on the processing

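Each result was recomputed under 10 alternatives, giving 110 values. A difference or median counted as moved where it shifted by more than the SD of 0.097 between probes of a gene, a count where it changed by over 1.5 times, and a difference or median of at least 1.1-fold as reversed where its sign turned. By these rules 6 values moved and 2 reversed, BLB1 and the median over members, both under normexp with quantile normalization. CD1C lay between 0.74 and 0.84 and CD74 between -0.39 and -0.32 throughout. Normexp with quantile normalization put BLB1 at 0.042, the median over members at 0.016, TAP1 at -0.0094 and B2M, which also turned in sign, at 0.048, with the class I median at -0.0094 and the count at least 1.1-fold lower at 1 instead of 4. Under the other alternatives that count lay between 3 and 6. It reached 6 only where dim probes were kept or a more lenient detection flag was used. Under those settings 8 members were counted instead of 6, with BF1 and BF2 included. Keeping dim probes moved B2M to -0.20, and the brightest probe alone put TAP2 at -0.038. For the normexp shift the cause was not tested. No scaling moved the median of all genes by over 0.038. No paired analysis was possible because each group had 1 array, and no array could be left out. Signal over background limits B2M, BF1, BF2, BLB1 and TAP1, and 13 of 22 member probes gave no difference.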

Other observations

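On the chromosome that carries the B locus, some genes that no list symbol matched were measured as well. TRIM27.2, a gene of the tripartite motif family, stood at -0.42 over 2 probes at -0.60 and -0.24, both dim. TRIM39.2, of the same family, was brighter, with 4123 and 3475, and stood at -0.18 over 3 probes between -0.25 and -0.15. BG8, a butyrophilin-like gene, stood at 0.040 over 6 probes, and CHIR-IG1-5, an immunoglobulin-like receptor gene, at -0.13 over probes at -0.28 and 0.030. These genes were picked after their values were seen.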
